A study of Mus musculus with 14 samples.

Results

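The genes described here carry the light response of ON bipolar cells, the retinal interneurons that depolarise when light reduces glutamate release from photoreceptors. The set held 10 genes chosen by name (Grm6, Nyx, Lrit3, Gpr179, Gnao1, Rgs7, Rgs11, Trpm1, Cabp5 and Pcp2). The count tables held 26307 rows after the RefSeq records of each gene were summed, with records lacking a gene symbol kept as single rows. RNA came from fluorescent retinal cells of wild-type CD1 mice, sorted at postnatal day 21 (P21) after electroporation of the eyes at P0 with 1 µg/µl of plasmid. The 2 control libraries carried the empty vector pSilencer-CAG-Venus and the 2 shBCOR libraries carried pSilencer-shBcor, a short hairpin against Bcor, which encodes a transcriptional corepressor. Each library pooled several sorts to reach 30000 to 70000 cells, with no number of eyes or litters stated for a pool. Tests therefore measured the spread between pools, and the control was an empty vector, not another hairpin. Electroporation at birth reaches progenitors that still give rise to rods, bipolar cells, Müller glia and late amacrine cells. The sorted pools are mixtures, and in them fewer bipolar cells and less RNA per bipolar cell cannot be told apart. Markers of cones, of ganglion and horizontal cells and of microglia also had counts in the pools, as given further on. The source of that RNA, and its part in the bipolar values, was not tested.

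In the dark, glutamate from rods and cones acts on mGluR6, the metabotropic receptor encoded by Grm6, at the dendritic tips of ON bipolar cells. The receptor activates the G protein Go, which keeps the cation channel TRPM1 closed. Light lowers glutamate, the GTPase-accelerating proteins RGS7 and RGS11 shut Go off, and TRPM1 opens. The orphan receptor GPR179 holds the RGS proteins at the tip, and the leucine-rich repeat proteins nyctalopin (Nyx) and LRIT3 are needed to place TRPM1 there. Loss of GRM6, NYX, GPR179, LRIT3 or TRPM1 causes congenital stationary night blindness in people, and the same genes underlie mouse lines without the electroretinogram b-wave. In RefSeq on GRCm38.p6 the genes lie apart: Grm6 at chr11:50850369-50866208, Gpr179 at chr11:97332109-97352356, Trpm1 at chr7:64153835-64269772, Cabp5 at chr7:13385960-13408887, Nyx at chrX:13461090-13492820, Lrit3 at chr3:129783941-129804136, Gnao1 at chr8:93810153-93969388 and Rgs11 at chr17:26202527-26211324.

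The libraries held 3173927 to 5107174 counts. Levels are given as CPM, the counts of a gene scaled by TMM to a common library size, and they are compared between libraries for 1 gene at a time, because no transcript lengths were used. Bcor, the target, had 3.69 and 1.51 CPM in the controls and 0 and 3.30 CPM in the shBCOR libraries (log2 fold change −0.63 ± 2.43, SE, n = 2 per group, edgeR adjusted p = 0.991). A lower level of Bcor was thus not detectable, and the target did not check the labels. It had 6 RefSeq records, of which only 1 held counts, and the sign of its fold change depended on single libraries (0.13 when control replicate 1 was left out, 0.34 when shBCOR replicate 1 was). Across genes, log2 CPM correlated at 0.838 between the shBCOR libraries, 0.845 to 0.857 between groups and 0.895 between the controls.

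Of the 10 genes, 8 had counts and all 8 passed the filter on low counts. Rgs7, with 4 RefSeq records, and Pcp2, with 18, were listed at 0 in every library. A 0 in these tables does not show that a gene is silent: Nrl, the transcription factor of rods, and Gnb1, the β subunit of rod transducin, have 4 and 3 records and were also listed at 0 in these rod-rich pools. Of genes with 1 record 46.4% had a count, against 36.3% of those with 4 or more. Nothing is therefore said here about the level of Rgs7, or about Pcp2, which encodes a modulator of Go found in rod bipolar cells and in Purkinje cells.

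Grm6, Nyx, Gpr179, Cabp5 and Rgs11 had lower values in both shBCOR pools than in either control, Trpm1 and Gnao1 were lower in 1 shBCOR pool alone, and Lrit3 was not lower. None of the 8 passed the test (edgeR quasi-likelihood, Benjamini-Hochberg adjusted p under 0.05), and the smallest adjusted p was 0.258. Over all 7775 genes tested, 0.09% were called, 3 of them higher (0.0386%) and 4 lower (0.0514%). At an unadjusted p under 0.05 there were 3 of the 8, all lower, against 9.3% of all genes tested in either direction and 5.11% lower. DESeq2 called 1, Grm6 (adjusted p = 0.00165), where it called 5.44% of all genes it tested. For 5 of the 8 the shBCOR values were both under the lower control, and for 0 both over the higher one, where 23.2% and 18.6% of all genes tested were so placed. The log2 fold change was below 0 for 7 of the 8 and for 50.9% of all genes tested. The median log2 fold change of the 8 was −0.89, beside −0.01 for all genes tested, and it depended on the libraries used, as described further on.

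**Figure D1:**
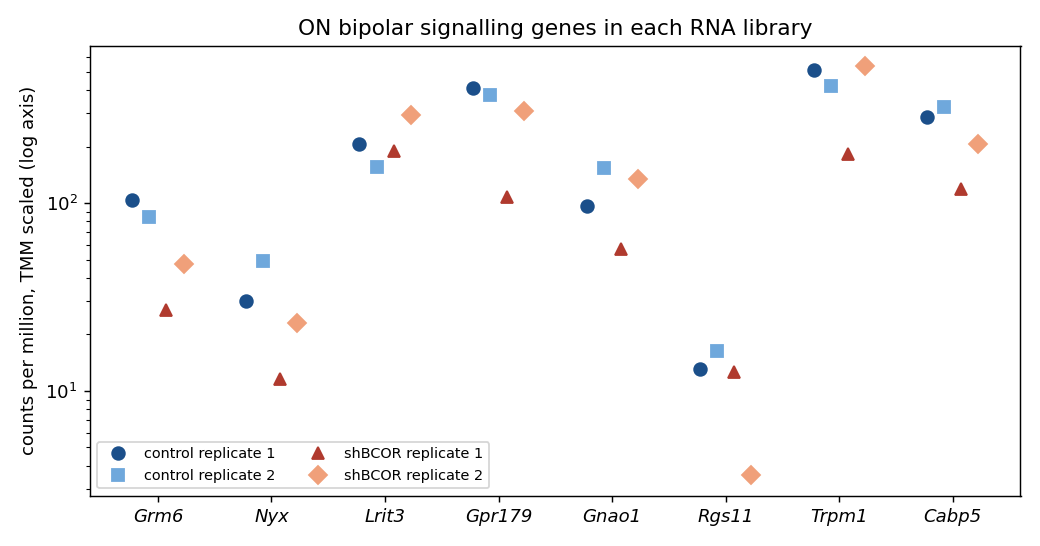
Level of the 8 ON bipolar signalling genes with counts, in CPM with TMM scaling on a log axis, with 1 point for each of the 4 RNA libraries. For Grm6, Nyx, Gpr179, Rgs11 and Cabp5 both shBCOR points lie below both control points, while for Trpm1, Gnao1 and Lrit3 the groups overlap.

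The receptor gene and its nearest structural partners did not behave alike. Grm6 had 103 and 84.5 CPM in the controls and 27.0 and 47.3 CPM in the shBCOR libraries, which were 28.8% and 50.3% of the control mean. The groups did not overlap (log2 fold change −1.33 ± 0.34, SE with n = 2 per group, 95% interval −2.13 to −0.53, edgeR adjusted p = 0.258). Nyx, whose product nyctalopin binds TRPM1 at the dendritic tip, had 30.1 and 49.0 CPM in the controls and 11.6 and 22.9 CPM in the shBCOR libraries. Both shBCOR values again lay below both controls (log2 fold change −1.19 ± 0.51, 95% interval −2.36 to −0.01, edgeR adjusted p = 0.536). Lrit3 had 206 and 156 CPM in the controls and 189 and 296 CPM in the shBCOR libraries. The first shBCOR pool lay between the controls and the second above both (log2 fold change 0.43 ± 0.25, 95% interval −0.16 to 1.01, edgeR adjusted p = 0.655). LRIT3 is also made by photoreceptors, from where it organises the complex across the synapse. The cell source of its RNA in these mixed pools was not tested.

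Among the genes of the G protein and its regulators, Gpr179 had the smallest p. It had 409.9 and 375 CPM in the controls and 108 and 309 CPM in the shBCOR libraries, the first far below and the second just below the controls (log2 fold change −0.91 ± 0.40, 95% interval −1.85 to 0.04, edgeR adjusted p = 0.554). Gnao1, which encodes the α subunit of Go and is used by many neurons besides bipolar cells, had 96.1 and 154 CPM in the controls and 57.1 and 134 CPM in the shBCOR libraries. The second shBCOR pool lay between the controls (log2 fold change −0.38 ± 0.41, 95% interval −1.34 to 0.57, edgeR adjusted p = 0.892). Both Gnao1 records held counts. NM_010308 had 456 and 711 counts in the controls against 105 and 447 with shBCOR, while NM_001113384, with fewer counts, had 65 and 103 against 62 and 80. Fitted as records, their log2 fold changes were −0.54 ± 0.50 and 0.40 ± 0.53 (edgeR adjusted p = 0.859 and 0.932), and reads shared by both records may be missing from either. Rgs11 was measured on few counts, 71 and 86 in the controls against 37 and 14 with shBCOR, or 13.1, 16.3, 12.6 and 3.56 CPM. Here the second shBCOR pool was the low one (log2 fold change −0.87 ± 0.83, 95% interval −2.80 to 1.06, edgeR adjusted p = 0.862).

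The channel gene Trpm1 divided the shBCOR pools. It had 511 and 422 CPM in the controls, 181 CPM in the first shBCOR pool and 534 CPM in the second, so the first held 38.9% and the second 114% of the control mean. The log2 fold change was −0.38 ± 0.41 (95% interval −1.35 to 0.59, edgeR adjusted p = 0.892). Nearly all of these counts came from record NM_001039104, and the other record, NM_018752, had 19 counts in control replicate 2 and 0 elsewhere. Cabp5, a calcium-binding protein of rod bipolar cells and of some cone bipolar types, both ON and OFF, had 287 and 326 CPM in the controls and 118 and 207 CPM in the shBCOR libraries. Its groups did not overlap (log2 fold change −0.91 ± 0.26, 95% interval −1.52 to −0.30, edgeR adjusted p = 0.299).

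The series also maps Otx2, a homeobox factor of photoreceptor and bipolar cells, and its title calls BCOR a co-repressor of OTX2 and the related CRX. The core motif of this family, TAATCC on either strand (GGATTA on the other), was therefore looked for in the 250 bases before each transcript start listed in a RefSeq promoter table (GRCm38.p6). It was found in 6.25% of 32851 such windows and for 7.21% of 27025 genes. Of the 10 genes, 9 had an entry, with 13 windows in all, of which 2, from 2 genes, held the motif. Cabp5 had 2 copies, starting 160 and 41 bases before its listed start, and the upstream Trpm1 start had 1, beginning 34 bases before it. The listed start need not be the outer end of the gene: the Cabp5 and Grm6 windows lie inside the annotated spans given above, and that of Trpm1 ends just before its span. The 3 windows shown are those of the genes with a match and, for comparison, of Grm6, the gene with the smallest p among the 8 tested, which had none. They are written 5′ to 3′ on the strand of the gene, with the motif in capitals. A match is a description of the letters and not of a bound site, and peaks were not placed at these genes.
Cabp5, chr7:13397905-13398154, plus strand: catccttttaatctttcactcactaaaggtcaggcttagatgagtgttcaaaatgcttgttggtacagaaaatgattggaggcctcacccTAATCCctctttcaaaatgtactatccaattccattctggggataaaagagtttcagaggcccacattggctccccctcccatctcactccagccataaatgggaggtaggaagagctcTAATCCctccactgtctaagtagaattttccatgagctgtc
Trpm1, chr7:64153585-64153834, plus strand: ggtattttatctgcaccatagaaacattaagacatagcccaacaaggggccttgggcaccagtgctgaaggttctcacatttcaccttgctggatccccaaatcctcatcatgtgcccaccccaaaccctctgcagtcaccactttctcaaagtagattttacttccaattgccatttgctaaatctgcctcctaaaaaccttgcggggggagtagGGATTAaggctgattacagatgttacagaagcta
Grm6, chr11:50850435-50850684, plus strand: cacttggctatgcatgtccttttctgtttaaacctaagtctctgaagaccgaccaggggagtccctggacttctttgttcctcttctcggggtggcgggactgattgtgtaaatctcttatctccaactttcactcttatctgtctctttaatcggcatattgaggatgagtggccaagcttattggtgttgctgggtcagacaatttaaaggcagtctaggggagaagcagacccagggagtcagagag

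As a ratio, each of the 8 genes differed more between the shBCOR pools than between the controls. In 7 of the 8 the first shBCOR pool had the lower value, all except Rgs11, while over all genes tested this was so in 49.8%. The second pool held 2.94 times the Trpm1 of the first, 2.86 times the Gpr179, 2.35 times the Gnao1, 1.97 times the Nyx, and 1.75 times the Grm6 and the Cabp5. Among tested genes whose average log2 CPM was 5 or more, this ratio had a median of 0.998 and quartiles of 0.797 and 1.23. The first pool lay below both controls for 7 of the 8 genes, all but Lrit3, against 40.0% of all genes tested, and the second for 5 of the 8, against 39.5%. The first pool was also the library with the fewest counts, and the part of depth in this split was not tested.

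Leaving out an shBCOR pool changed the calls, each time with a single shBCOR pool assumed to vary like the controls. With the first pool alone 6 of the 8 genes passed as lower: Gpr179 (log2 fold change −1.87, edgeR adjusted p = 1.51e-11), Grm6 (−1.81, 0.000483), Nyx (−1.77, 0.0476), Cabp5 (−1.38, 5.92e-07), Trpm1 (−1.37, 1.94e-08) and Gnao1 (−1.14, 0.0138). With the second pool alone 2 passed, Cabp5 as lower (−0.56, edgeR adjusted p = 0.0385) and Lrit3 as higher (0.71, 0.00984). In that fit Grm6 had −0.99 (0.0507) and Gpr179 −0.34 (0.217), while Trpm1 turned to 0.20 (0.538) and Gnao1 to 0.10 (0.882). The median of the 8 was −1.38 with the first pool alone and −0.45 with the second. The fit with the first pool alone called 491 genes (5.59% of those tested) and that with the second 525 (5.87%), against 0.09% with all 4 libraries. Cabp5, Grm6, Nyx, Gpr179 and Rgs11 kept a negative value in both fits, which share the same controls. How many of all genes tested did so was not counted.

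**Figure D2:**
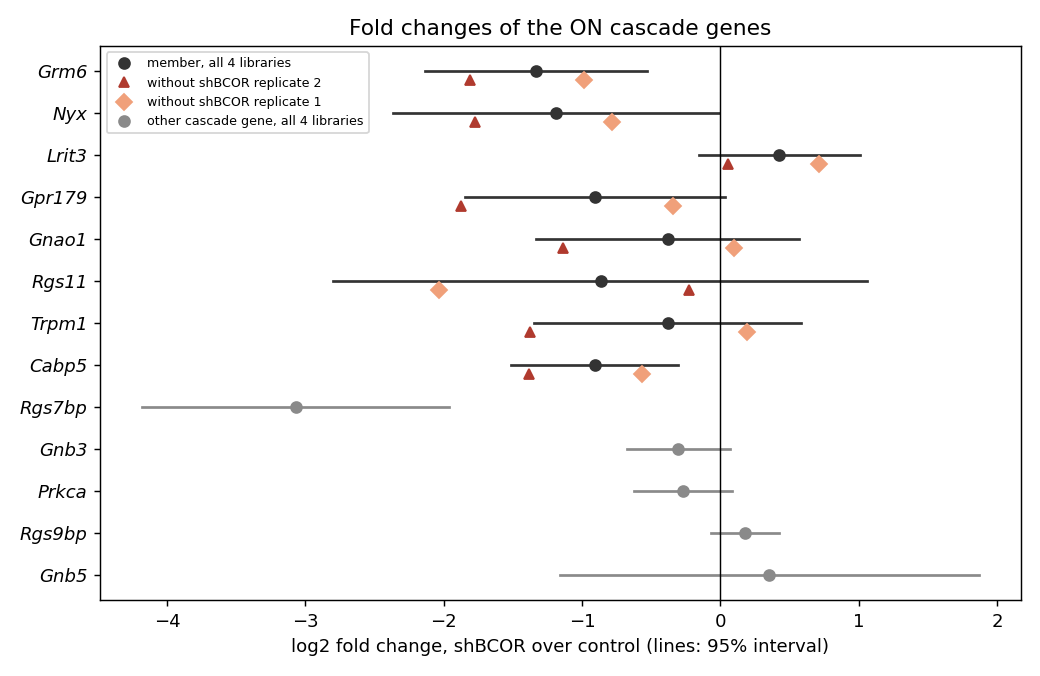
Log2 fold change of shBCOR over control for the 8 members (black) and for other genes of the ON cascade (grey), with 95% intervals of the edgeR fit as lines, and for the members the values after leaving out 1 shBCOR pool (coloured). Trpm1 runs from −1.37 with the first pool alone to 0.20 with the second, while Grm6 runs from −1.81 to −0.99.

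Ratios between genes within a library do not depend on scaling, and Trpm1 was taken as the reference after its values were seen. The ratio of Grm6 to Trpm1 counts was 0.202 and 0.200 in the controls against 0.149 and 0.0885 with shBCOR. Gpr179 was at 0.802 and 0.888 of Trpm1 in the controls and at 0.595 and 0.579 in the shBCOR pools. Receptor and scaffold RNA were thus lower relative to channel RNA in both pools. Trpm1 itself was at 38.9% of the control mean in the first pool, which raises ratios to it. In the second it was at 114%, which lowers them. Lrit3 went the other way, from 0.402 and 0.369 of Trpm1 to 1.04 and 0.554. For Nyx, Gnao1, Rgs11 and Cabp5 the ratios to Trpm1 overlapped between the groups. These ratios compare genes with each other and were not tested. How many of all genes tested would lie so relative to Trpm1 was not counted, so these placements have no background.

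Of 6 other genes of the ON cascade none was called among the 5 tested, and their median log2 fold change was −0.27. Rgs7bp, the membrane anchor of RGS7-family proteins in many neurons, had 60.3 and 48.0 CPM in the controls and 8.20 and 4.83 CPM in the shBCOR libraries. Both pools were far under the controls (log2 fold change −3.07 ± 0.48, SE, n = 2 per group, edgeR adjusted p = 0.0785), and DESeq2 called it (adjusted p = 6.11e-09), as did the edgeR fits with either shBCOR pool alone (first adjusted p = 0.000359, second 6.53e-06). Gnb3, the β subunit that partners Gαo in ON bipolar cells and transducin in cones, had 221 and 225 CPM in the controls and 179.8 and 181 CPM in the shBCOR libraries (−0.30 ± 0.16, edgeR adjusted p = 0.613). Prkca, the protein kinase Cα that marks rod bipolar cells, had 658 and 623 CPM in the controls and 599.9 and 463 CPM in the shBCOR libraries. Its second pool was the lower one (−0.27 ± 0.15, edgeR adjusted p = 0.64), the reverse of Trpm1 and Gpr179. Rgs9bp, the anchor of RGS9 in photoreceptors and of RGS11 in ON bipolar cells, had 2118 and 2403 CPM in the controls and 2699 and 2425 CPM in the shBCOR libraries (0.18 ± 0.11, edgeR adjusted p = 0.655). Gng13, the γ subunit of the bipolar G protein, has 2 records and was listed at 0.

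Bipolar cell markers outside this gene set were present in all 4 libraries, and their sums were lower in both shBCOR pools. The 10 ON and rod bipolar markers, Prkca among them, all had counts and summed to 1179 and 1151 CPM in the controls and to 839 and 991 CPM in the shBCOR libraries. The lower sum of this list in the second pool rested on Prkca, which had 658 and 623 CPM in the controls and 599.9 and 463 CPM with shBCOR. Without Prkca the ON and rod, OFF and pan-bipolar lists together summed to 957 and 941 CPM in the controls against 493 and 878 CPM. Of the 9 ON and rod markers tested 0 were called, 5 had both shBCOR libraries below both controls and the median log2 fold change was −0.42. The other 4 overlapped between the groups. Their second pool stood at 166% of the control mean for Gabrr1 (log2 fold change 0.17), 101% for Isl1 (−0.42), 99.1% for Sebox (−0.40) and 94.4% for Bhlhe23 (−0.34). The markers with the smallest p beside Prkca were Vstm2b (−1.02, edgeR adjusted p = 0.579), the rod bipolar protein Car8 (−0.62, 0.634) and the GABA receptor subunit Gabrr2 (−0.67, 0.802). Car8 had 218 and 229 CPM in the controls and 88.2 and 202 CPM in the shBCOR libraries, a split like that of Gpr179.

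OFF bipolar markers summed to 146 and 123 CPM in the controls and 71.4 and 92.3 CPM in the shBCOR libraries. Of 7 tested of 13, 0 were called, 4 did not overlap and were lower, and the median was −0.52. The other 3 overlapped, Grik1 (0.30), Erbb4 (−0.03) and Irx5 (−0.11), all on few counts. Bhlhe22, a transcription factor of OFF bipolar and amacrine cells, had −1.57 (edgeR adjusted p = 0.283), Vsx1, a homeobox factor of cone bipolar cells, had −0.52 (0.747), the channel Hcn4 −0.86 (0.764) and the tachykinin receptor Tacr3 −1.71 (0.789). Pan-bipolar markers summed to 291 and 290.1 CPM in the controls and 182 and 258 CPM in the shBCOR libraries, with 0 of 3 tested called and all 3 lower without overlap, at a median of −0.64. They were the LIM homeobox gene Lhx4 (−1.69, edgeR adjusted p = 0.446), the calcium-binding protein Scgn (−0.64, 0.7) and Prdm8 (−0.26, 0.793). Irx6, Neto1, Nnat and Syt2 of the OFF list have several records each and were listed at 0.

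Set against the sum of all 3 bipolar lists in the same library, the ON signalling genes separated by gene. Grm6 was at 6.40% and 5.40% of that sum in the controls and at 2.47% and 3.52% in the shBCOR pools. Nyx was at 1.86% and 3.13% against 1.06% and 1.71%, Cabp5 at 17.8% and 20.8% against 10.8% and 15.4%, and Gpr179 at 25.4% and 24.0% against 9.88% and 23.0%. For these 4 genes both pools lay below both controls also relative to other bipolar transcripts, though for Gpr179 the second pool did so narrowly. Lrit3 lay above, at 17.3% and 22.1% against 12.7% and 9.97%. Trpm1, Gnao1 and Rgs11 overlapped. The sum rests largely on Prkca, and the same 4 lower and 1 higher counts were obtained without it and with the ON and rod list alone. How many of all genes tested would lie so relative to the marker sum was not counted, so these 4 and 1 have no background. In plain CPM 23.2% of all genes tested lay below both controls and 18.6% above both. With Prkca left out of the sum, the shBCOR pools came close to each other for Grm6, at 5.48% and 5.38% against 10.8% and 8.98% in the controls. The same held for Cabp5, at 24.0% and 23.6% against 30.0% and 34.6%. The pools stayed apart for Gpr179, at 21.9% and 35.2% against 42.8% and 39.8%. They also did for Trpm1, at 36.8% and 60.8% against 53.4% and 44.8%. The shares of the marker sum were not tested.

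**Figure D3:**
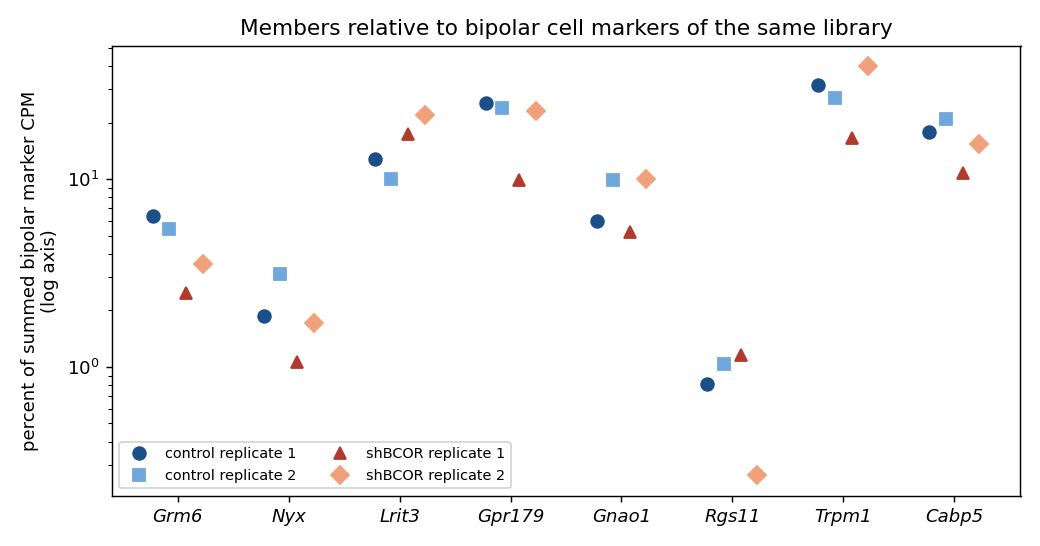
Level of each member as a percent of the summed CPM of the ON and rod, OFF and pan-bipolar marker lists in the same library (log axis), with 1 point for each of the 4 libraries. Grm6 lies at 6.40% and 5.40% in the controls and at 2.47% and 3.52% in the shBCOR pools, while Lrit3 lies higher in both pools.

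Genes that act on the photoreceptor side of the same synapse were mixed in direction. Of 9 such genes 7 were tested and 0 called, 3 lay above both controls, 1 below both and 3 overlapped, with a median log2 fold change of 0.16. Their sum was 3557 and 3635 CPM in the controls and 4755 and 5008 CPM in the shBCOR libraries, most of it from Lrit1 and Dmd. Lrit1, a photoreceptor relative of LRIT3, had 1163 and 1264 CPM against 1704 and 1867 CPM (0.56 ± 0.11, SE, n = 2 per group, edgeR adjusted p = 0.112), and Dmd, the dystrophin gene, had 1676 and 1537 against 2213 and 2339.7 CPM (0.50 ± 0.10, 0.129). DESeq2 called both (adjusted p = 4.98e-07 and 1.96e-06). Elfn1, the adhesion protein with which rods bind mGluR6, had few counts, at 2.58 and 12.9 against 1.03 and 1.53 CPM (−2.56 ± 1.64, edgeR adjusted p = 0.704), as did the calcium channel subunit Cacna2d4 (1.40 ± 1.31, 0.855). Both have several records, as Dmd does.

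Marker sums of other retinal cells also differed between the groups. Rod markers summed to 201869.5 and 203423 CPM in the controls and to 268687 and 228426 CPM in the shBCOR libraries, with 0 of 14 tested called, 11 above both controls and a median log2 fold change of 0.29. The kinase Grk1 had 0.46 and the phosphodiesterase subunit Pde6a 0.39 (edgeR adjusted p = 0.0768 and 0.096). Müller glia markers summed to 5289 and 5115 CPM against 3650.5 and 4524 CPM, with 0 of 7 tested called, 3 below both controls, 4 overlapping and a median of −0.32. Most of that sum was glutamine synthetase (Glul), at 3835 and 3727 CPM against 2385 and 3065 CPM. Glul had −0.47 and the potassium channel Kcnj10 −0.77 (edgeR adjusted p = 0.262 and 0.268), while the glutamate transporter Slc1a3 (0.16), Sox9 (0.32) and Clu (0.05) had values above 0.

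The sums of rod, ON bipolar and Müller markers thus all lay further from the controls in the first shBCOR pool than in the second. Amacrine markers summed to 102 and 110.4 CPM against 29.7 and 35.1 CPM, with 0 of 6 tested called, 4 below both controls, 2 overlapping, a median of −1.99, and the GABA-synthesising enzymes Gad1 and Gad2 at −2.66 and −2.33 (edgeR adjusted p = 0.145 and 0.184). The other direction was seen for the glycine transporter Slc6a9 (1.12) and for Chat (0.51), both overlapping. Ganglion and horizontal cell markers summed to 1897 and 1844 CPM against 726 and 389 CPM, with 1 of 10 tested called, the neurofilament chain Nefm (−3.43, edgeR adjusted p = 0.0203), a median of −1.74, and Nefh at −1.76 (0.0588). The sums of these inner retinal lists were low in both shBCOR pools, so they did not divide the pools as Trpm1 and Gpr179 did. Cone markers summed to 979.9 and 874 CPM against 965 and 585 CPM (0 of 8 tested called, median −0.19). The part of these differences in the values of the ON bipolar genes was not tested.

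**Figure D4:**
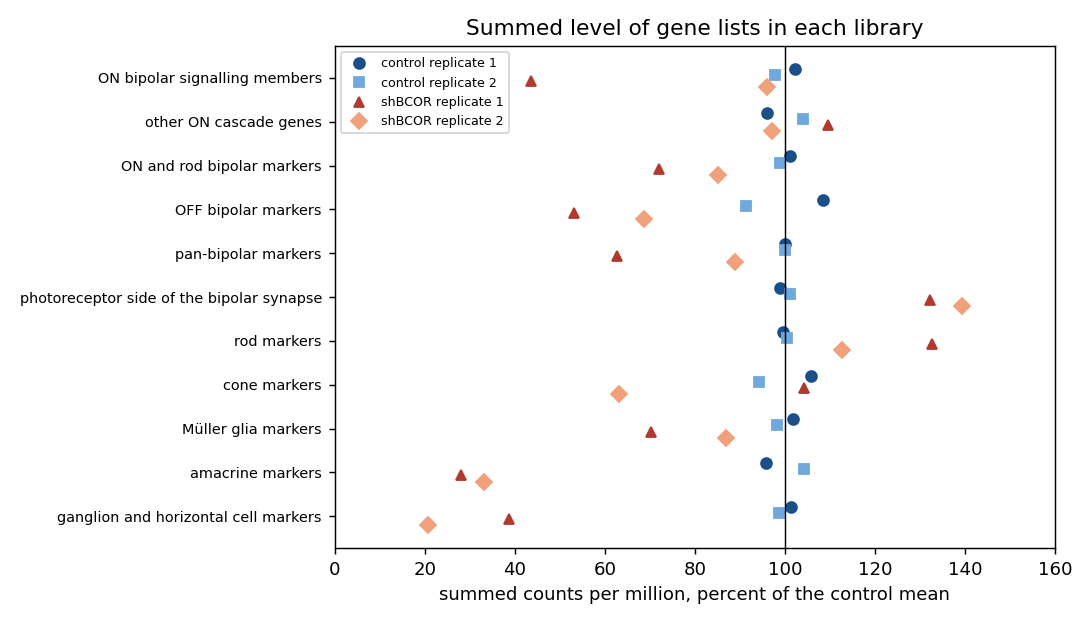
Summed CPM of each gene list as a percent of the control mean, with 1 point for each of the 4 libraries. The ON bipolar signalling members lie at 43.6% in the first shBCOR pool and at 95.9% in the second, while amacrine markers lie at 28.1% and 33.1% and rod markers at 133% and 113%. The members' sum in the second pool combines Lrit3 at 164%, Trpm1 at 114% and Gnao1 at 107% with 5 genes that lay below both controls.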

How the data were processed

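For RNA, the authors deposited unnormalised HTSeq counts for each RefSeq record. Trimmomatic, TopHat and DESeq2, and the builds mm10 and mm9, appear in the submitters' processing notes with neither version nor role. The strand setting, and how reads lying in several records were counted, are not given in the sources used here. Of 45895 records 99.7% matched a symbol in a RefSeq gene table of GRCm38.p6. Records without one (0.465% of counts) were kept as single rows. Records were summed per gene, and edgeR 4.0.16 under R 4.3.3 tested the 4 libraries (TMM, filterByExpr, robust quasi-likelihood F test, Benjamini-Hochberg over 7775 genes, threshold 0.05). The common biological coefficient of variation was 0.545. Standard errors and 95% intervals were derived from the fold changes and F statistics of that fit. Simulated data were used to look at its fold changes and calls, not at its standard errors or intervals. DESeq2 1.42.0, other scalings and filters, single records, single-record genes, a replicate block and left-out libraries were alternatives. The last-named gene filter, the denominator without Prkca and the ratios to Trpm1 were added after seeing the data. The gene set and the lists were chosen with earlier results of these data known. All 8 members with counts are described, and of each further list the called genes and up to 4 genes with the smallest p. Slc1a3, Sox9, Clu, Slc6a9, Chat, Lhx1, Onecut2, Gabrr1, Isl1, Sebox, Bhlhe23, Grik1, Erbb4 and Irx5 were named after their values were seen. The 10 CUT&RUN peak lists, on mm9, were not used here. For shBCOR replicate 2 the deposited name and the title differ in number, and the title was followed.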

Additional observations from a re-analysis of the deposited data

How the results depend on the processing

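The count of genes called was 7 with all 4 libraries and also 7 with RLE or upper-quartile scaling, single records, a filter of 1 CPM in 2 libraries and without the robust option. It was 205 without a filter, 410 with DESeq2, 30 among genes with a single record, 23 with the replicate block and 4 to 525 with 1 library left out. Members called, 0 with all libraries, numbered 2 without a filter (Grm6 and Cabp5), 1 with DESeq2 and 0 to 6 with 1 library left out. The fit without a filter tested 11249 genes, of which 205 were called. The block called 0 members, with a median of −1.02. Libraries of equal replicate number did not deviate together across genes (correlation −0.0079). A correlation over all genes cannot show whether such libraries shared a sort or litter. With the block Rgs7bp passed (edgeR adjusted p = 0.0478). The members' median ranged from −1.38 to −0.45 with 1 library left out. Relative to bipolar markers the median log2 ratio was −0.47, −0.51 with the ON and rod list, −0.25 without Prkca and −0.83 to −0.21 with 1 library left out. Of the members' 102 recomputed fold changes 2 turned sign, Trpm1 (0.20) and Gnao1 (0.10) without shBCOR replicate 1, and their left-out values started at −1.37 and −1.14. The 358 for the other named genes leave out those named after their values were seen, and count those of Nefm 2 times. Of these, 2 turned sign. Both were of Bcor (0.13 without control replicate 1 and 0.34 without shBCOR replicate 1, lowest −6.58), and the cause was not tested. Rgs11 and Bcor are limited by their few counts, and Rgs7 and Pcp2 by the counting of genes with several records.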

Other observations

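Transcripts of the pigment epithelium, the cell layer behind the photoreceptors, appeared almost only in the second shBCOR pool. The visual cycle isomerase Rpe65 had 31 counts and the acyltransferase Lrat 11 counts there and 0 in the other 3 libraries, and the carrier Ttr had 35 counts there against 7 and 10 in the controls and 0 in the first pool. Best1 was listed at 0 in all libraries. None of the 4 genes passed the filter on low counts. Microglia markers summed to 17.9 and 17.8 CPM in the controls and to 4.44 and 6.35 CPM in the shBCOR pools, with 0 of 3 tested called. Astrocyte and oligodendrocyte markers summed to 38.6 and 35.9 CPM against 19.1 and 25.2 CPM, also with 0 of 3 called. Of the vascular markers only Rgs5 had counts, at 15.5 and 10.4 CPM against 7.18 and 0.254 CPM, and red blood cell markers were listed at 0.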
